A study of Mus musculus with 44 samples.

Results

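The 39 mouse Hox genes were examined as a group, taken as every gene of the deposited tables whose symbol is Hox followed by a cluster letter from a to d and a paralog number. All 39 were present among the 29720 genes of each table, 11 in cluster A, 10 in cluster B, 9 in cluster C and 9 in cluster D. RNA was sequenced from whole intestinal tissue of C57BL/6 mice in 2 models of inflammatory bowel disease, 44 libraries in all.

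In the T cell transfer model (TCT, 23 libraries), Rag1 null mice, which lack their own mature T and B cells, were injected with 400000 naïve T cells, which brings on colitis, or with 200000 bulk T cells as the controls without inflammation. In the TNF∆ARE model (TNF, 21 libraries), heterozygous Tnf ∆ARE/+ mice, whose Tnf transcripts lack a destabilising AU-rich element throughout the body, were inflamed and their Tnf +/+ littermates were not. The protocol gives 8 to 12 weeks for colitis to arise in TCT mice, whose age was not used here, and an age of 16 weeks at randomisation for TNF mice. Within each model and state mice received vehicle or the MK2 inhibitor ATI-450 at 3 mg/kg, a second dose 16 h later, and were killed 90 min after it. MK2 is a kinase downstream of p38 that stabilises inflammatory transcripts. The 8 groups held 5 or 6 libraries each. Nothing in the labels says which animal each library came from, so p-values measure the spread between libraries. The extraction protocol names distal colon and ileum without tying either to a model.

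Hox genes encode homeodomain transcription factors that sit in 4 clusters, and their order along each cluster matches where along the body axis they are active. Low paralog numbers act near the head and high numbers near the tail, a rule called collinearity, and the pattern set in the embryo persists in adult gut. Pbx and Meis proteins bind DNA together with Hox proteins, Cdx factors and retinoic acid receptors activate the clusters, and Polycomb proteins keep unused parts silent. Paralogs 1 to 4 are called anterior here, 5 to 8 central and 9 to 13 posterior.

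In the GRCm38 annotation cluster A lies on chromosome 6 (52155590 to 52260880), cluster B on chromosome 11 (96194316 to 96368256), cluster C on chromosome 15 (102921103 to 103036852) and cluster D on chromosome 2 (74668310 to 74765142). Start-site sequences are shown for 3 genes with opposite levels in the 2 models: Hoxa13 and Hoxd13, abundant in TCT and near 0 in TNF, and Hoxb8, abundant in TNF and low in TCT. They are the 250 bases upstream of the RefSeq start on GRCm38.p6, from chr6:52260881-52261130 (minus strand), chr2:74667975-74668224 (plus strand) and chr11:96281655-96281904 (plus strand), and none overlaps an annotated exon. Capitals mark TTTAT on either strand, a core that Cdx and posterior Hox proteins can bind, and overlapping matches are joined.
Hoxa13: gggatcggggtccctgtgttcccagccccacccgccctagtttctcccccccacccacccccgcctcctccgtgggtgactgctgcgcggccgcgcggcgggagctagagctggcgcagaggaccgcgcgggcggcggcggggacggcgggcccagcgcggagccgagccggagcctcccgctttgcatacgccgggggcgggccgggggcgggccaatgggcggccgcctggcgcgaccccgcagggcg
Hoxd13: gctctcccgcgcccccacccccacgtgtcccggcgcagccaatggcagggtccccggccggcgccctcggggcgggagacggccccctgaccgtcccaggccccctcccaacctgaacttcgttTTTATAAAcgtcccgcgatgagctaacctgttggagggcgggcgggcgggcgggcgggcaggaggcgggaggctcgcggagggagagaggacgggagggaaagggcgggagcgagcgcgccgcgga
Hoxb8: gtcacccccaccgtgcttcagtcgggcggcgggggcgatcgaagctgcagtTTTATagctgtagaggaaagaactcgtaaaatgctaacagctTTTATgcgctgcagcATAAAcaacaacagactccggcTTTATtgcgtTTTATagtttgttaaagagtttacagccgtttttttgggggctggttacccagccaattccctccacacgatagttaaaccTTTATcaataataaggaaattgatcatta
The Hoxb8 stretch held 6 matches, that of Hoxd13 held 2, which overlap, and that of Hoxa13 none, with GC contents of 44.4%, 74.4% and 80%. Among all 24 Hox start sites in the table, which cover 22 of the 39 genes, 37.5% held at least 1 match, against 37.3% of 32851 start sites of any gene over the same length. The median CpG content relative to base composition was 0.72 in the Hox set and 0.37 in all start sites. A match describes letters and shows no binding.

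Levels are given as CPM, a gene's counts scaled to a library total of 1e+06. Library totals, in units of 1e+06 counts, ranged from 5.95 to 22.3 in TCT and from 5.8 to 13.1 in TNF. Some markers separated the models: the colonic carbonic anhydrase gene Car1 had a median of 593 CPM in TCT and 1.9 in TNF, while the ileal bile acid binding gene Fabp6 had 3.96 and 2944. Not all listed colon markers did so: Ms4a12 had medians of 36.4 and 33.1 CPM and Ceacam20 of 148 and 162. Guca2a, at 258 and 531, and Osr2, at 0.434 and 50.2, were higher in TNF. One library went against its model. TCT inflamed vehicle replicate 3 held 5372 CPM of the small intestinal gene Sis and 0.38 of Car1, and the main inflammation and inhibitor results for inflamed TCT mice are given with and without it. Among TCT libraries, 5 inflamed ones held over 10 CPM of the pancreatic gene Cela2a, and among TNF libraries 5 inflamed ones held over 100 CPM of Car1. The epithelial gene Epcam was listed at 0.401 CPM or less in every library, although the other epithelial markers were abundant.

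The 2 models carried different Hox profiles with part in common. Leaving out replicate 3, 21 members had a median of at least 1 CPM in TCT and 16 in TNF, 10 of them in both. Only TCT passed this level for Hoxa2, Hoxa9, Hoxa10, Hoxa11, Hoxa13, Hoxb13, Hoxd9, Hoxd10, Hoxd11, Hoxd12 and Hoxd13. Only TNF passed it for Hoxb6, Hoxb8, Hoxc4, Hoxc5, Hoxc6 and Hoxc8. Posterior genes made up 82.7% to 94.8% of Hox counts in the 22 TCT libraries and 11.7% to 33.5% in TNF, where central genes held 55.1% to 65.8%. Summed Hox levels were 359 to 1027 CPM in these TCT libraries and 62.8 to 167 in TNF.

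**Figure D1:**
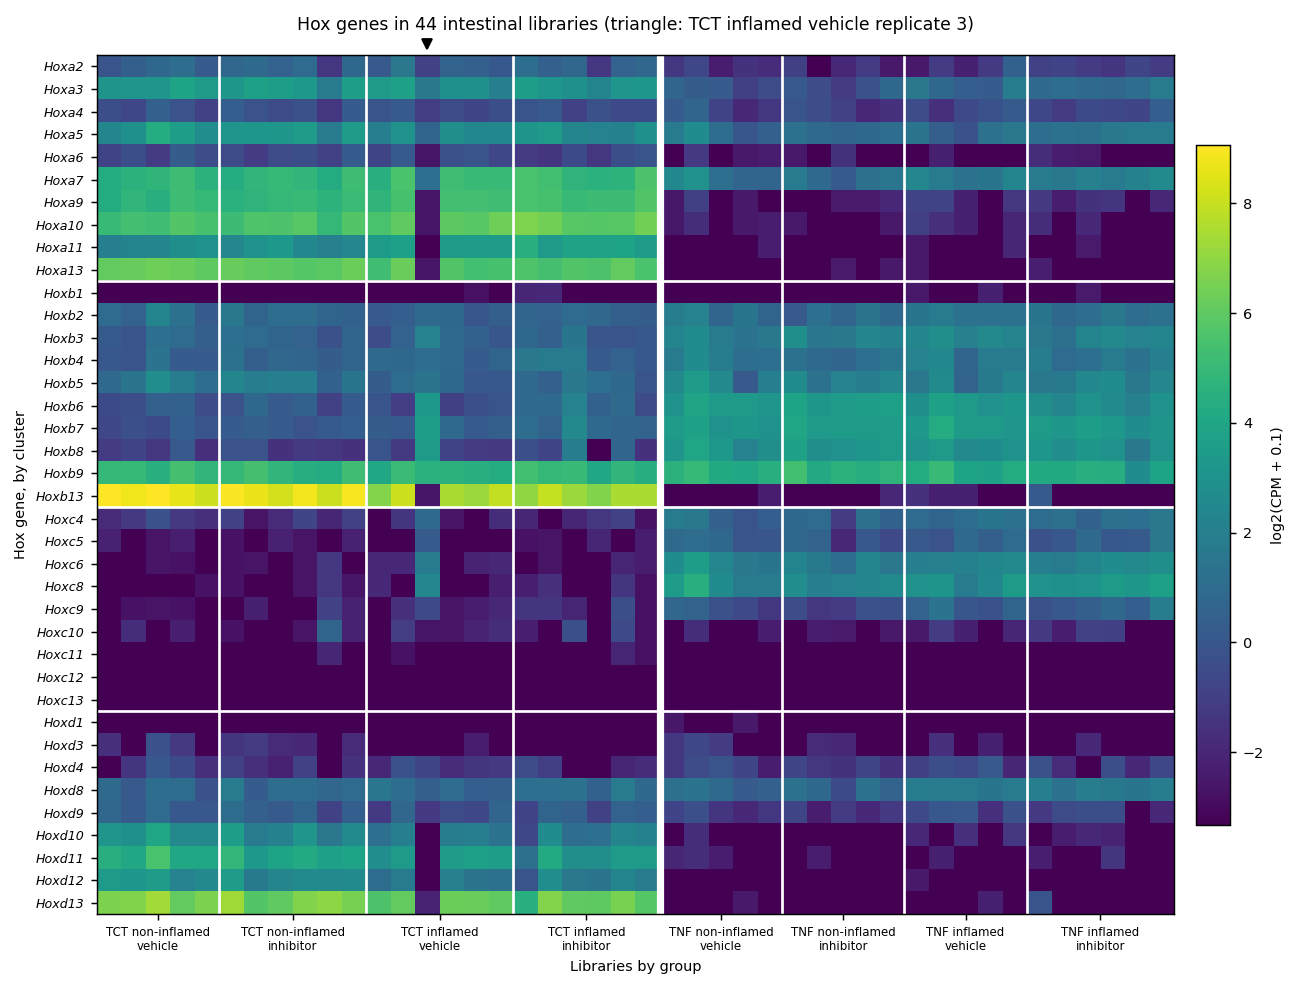
Level of 38 of the 39 Hox genes (rows, by cluster and paralog) in the 44 libraries (columns, by group), coloured by log2(CPM + 0.1). TCT columns are bright at Hoxa7 to Hoxa13, Hoxb13 and Hoxd10 to Hoxd13, TNF columns at Hoxb3 to Hoxb9 and Hoxc4 to Hoxc8, and the column under the triangle, labelled TCT, has the TNF pattern.

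Per kilobase of merged exons, the order of levels also differed. In the 11 non-inflamed TCT libraries Hoxb13, which marks the hindgut end of cluster B, led with a median of 201 CPM per kb. Hoxd13 followed at 40.2, Hoxa13 at 27.1, Hoxa10 at 13.3 and Hoxb9 at 11.9. In the 10 non-inflamed TNF libraries Hoxb9 led at 9.04 CPM per kb, followed by Hoxb7 at 6.94, Hoxb6 at 5.39, Hoxb8 at 3.37 and Hoxc8 at 1.94. Hoxb13, at 123 to 244 CPM per kb, did not overlap Hoxd13, at 21.7 to 66.1, whereas Hoxd13 and Hoxa13 (22.6 to 32.3) did. In TNF the ranges per kb of Hoxb9 (6.46 to 15.5) and Hoxb7 (5.15 to 10) overlapped, as did those of Hoxb7, Hoxb6 (4.19 to 7.56) and Hoxb8 (1.69 to 5.83) from one to the next.

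The first comparison asked which members differed between the non-inflamed vehicle mice of the models (TCT minus TNF, 5 libraries each). edgeR's quasi-likelihood test with Benjamini-Hochberg adjustment, at an adjusted p under 0.05, called 24 of the 29 members that passed the filter on low counts, 14 higher and 10 lower in TCT, or 82.8%. Of all 15565 genes tested 32% were called, 14.4% higher and 17.7% lower. With the batch number as a term 13 members were called, 6 higher and 7 lower, against 12% of all genes. Of the 29, 12 passed the filter through both models, 12 through TCT alone and 5 through TNF alone, and members of the last 2 kinds entered only through the model in which they reached the cutoff. The count and their values below therefore describe the profile and support nothing further. Model, gut region, genotype, immune state and batch cannot be told apart in this contrast.

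Several posterior members were near 0 in TNF. Hoxb13 was at 527, 443, 537, 395 and 282 CPM in the TCT libraries, and at 0 in 4 TNF libraries and 0.1 in the fifth. The TNF value rests on 1 count, and the ratio was 24242 with a 95% counting interval from 4351 to 957521. Hoxa13, needed for distal hindgut and limb, was at 67.1, 72.8, 79.8, 75.7 and 63.5 CPM in TCT and listed at 0 in all 5 TNF libraries, at least 1336-fold higher against a floor of 3 counts over the group. No TNF library came near the lowest TCT library for either gene.

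Hoxd13, whose human counterpart is mutated in synpolydactyly, was at 99.7, 104, 164, 68.8 and 99.5 CPM in TCT, and 1 count was found in all TNF libraries of the group together. Its ratio was 5933 (counting interval 1065 to 234380). Hoxd12 was at 4.41 to 11 CPM in TCT and at 0 in TNF, at least 149-fold higher. Hoxd11 and Hoxd10 were 257-fold and 234-fold higher, the latter on 2 TNF counts (interval 64.6 to 1937). Hoxd9 differed less, by 1.57 ± 0.53 on the log2 scale. Hoxa10 and Hoxa9, at 33.9 to 53 and 19.4 to 37.2 CPM in TCT, were 473-fold and 259-fold higher, and Hoxa11, at 4.02 to 7.8 CPM, was 320-fold higher on 1 TNF count (interval 57.2 to 12662).

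The posterior difference had an exception within each of clusters B and C. Hoxb9 was at 30.7, 31.7, 22.9, 43.2 and 28.9 CPM in TCT and at 25, 30.9, 18.6, 16.6 and 21.5 in TNF. Its groups overlapped, and the log2 difference was 0.25 ± 0.26 (SE, 95% interval -0.27 to 0.77, adjusted p = 0.495, edgeR), which leaves room for a difference of either sign. Hoxc9 was lower in TCT, on 3 counts against 53 (28.7-fold, interval 9.31 to 144). Hoxc11 had 4 counts in all TCT libraries and 0 in TNF, and Hoxc12 and Hoxc13 were listed at 0 in all 44 libraries, so group 13 was represented by Hoxa13, Hoxb13 and Hoxd13 only.

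Of the central members of clusters B and C, Hoxb6, Hoxb7, Hoxb8, Hoxc5, Hoxc6 and Hoxc8 were higher in TNF. Hoxb8 was at 8.85, 15.4, 9.59, 4.44 and 6.91 CPM in TNF and at 0.35, 0.467, 0.292, 1.01 and 0.218 in TCT, with no overlap. The fitted log2 difference was -4.46 ± 0.83 (SE). Hoxb8, counted above as passing through both models, reached the cutoff in 5 TCT libraries, the number needed. Of these, 1 was TCT inflamed vehicle replicate 3. Without that library Hoxb8 would enter through TNF alone, so its value also describes the profile only. Hoxb7 and Hoxb6 differed by -3.89 ± 0.53 and -3.75 ± 0.62 (log2). Hoxc8 was at 11.5, 22, 6.3, 3.29 and 3.41 CPM in TNF, and TCT held 1 count in all, a ratio of 822 (interval 147 to 32545). Hoxc6 was at 2.71 to 12 CPM in TNF against 2 counts in TCT (260-fold, interval 71.4 to 2156), and Hoxc5 and Hoxc4 were 26.3-fold and 5.49-fold higher in TNF. Exons of Hoxc5 and Hoxc10 overlap on 1 strand, so their counts could be shared.

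Cluster A departed from this split, since its central and anterior members were also higher in TCT. Hoxa7 was at 19.6 to 37.4 CPM in TCT and 1.5 to 7.68 in TNF (log2 difference 2.68 ± 0.42), and Hoxa5, which patterns lung and gut mesenchyme, differed by 1.69 ± 0.41. Hoxa3 was at 8.33 to 14.5 CPM against 0.412 to 1.53 (log2 difference 3.17 ± 0.38, adjusted p = 2.84e-08, edgeR), and Hoxa2 differed by 2.10 ± 0.57. Hoxa2 and Hoxa3 share exon sequence on 1 strand with another gene of the tables, Gm28308. Hoxb3 and Hoxb4 went the other way, at -1.65 ± 0.39 and -1.59 ± 0.36, whereas Hoxb2, Hoxb5, Hoxa4 and Hoxd8 had adjusted p-values of 0.321, 0.122, 0.927 and 0.367. Of 9 tested members of cluster A 8 were higher in TCT and none lower, of cluster B 1 higher and 5 lower of 9, of cluster C 5 lower of 5, and of cluster D 5 higher of 6. Of all genes 14.4% were higher and 17.7% lower. All 5 members of cluster C entered the test through TNF alone. Hoxd9 to Hoxd13, Hoxb13, Hoxa2, Hoxa9, Hoxa10, Hoxa11 and Hoxa13 entered through TCT alone. These tallies by cluster therefore describe the profile only.

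**Figure D2:**
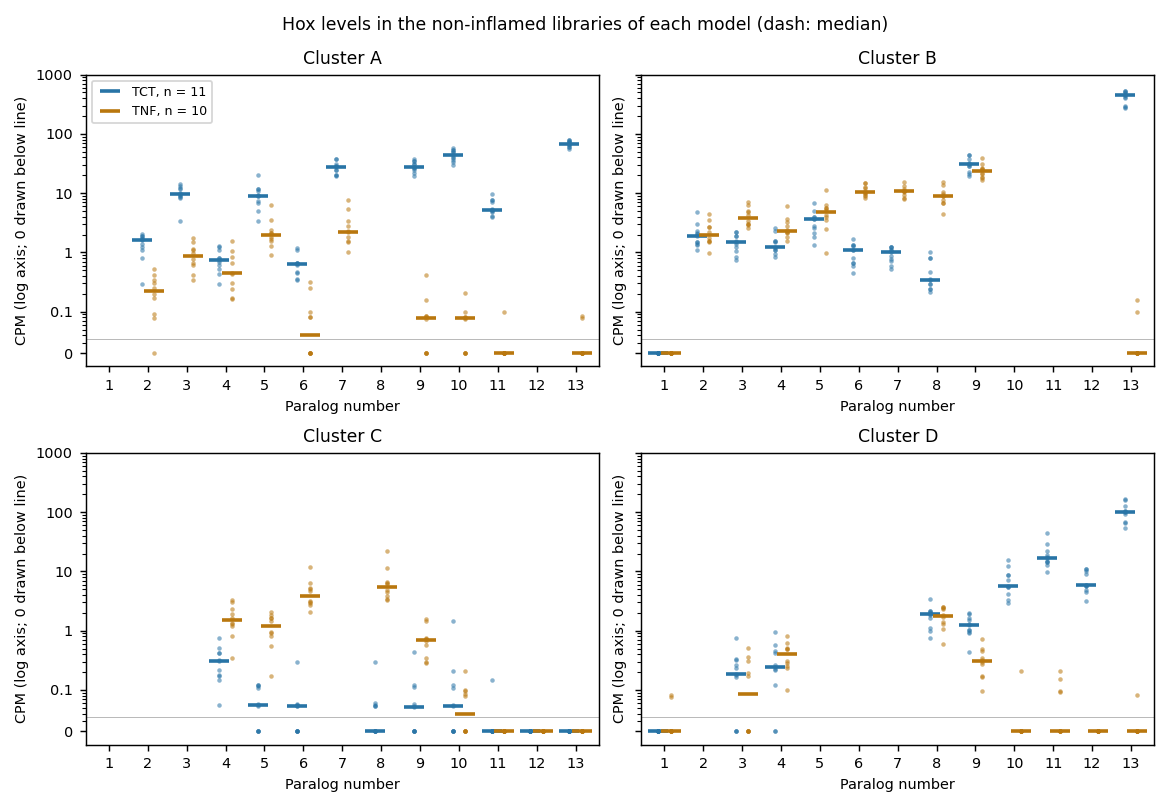
Levels in CPM (log axis) by paralog number in each cluster for the same 38 genes, in 11 non-inflamed TCT and 10 non-inflamed TNF libraries, with points for libraries and dashes for medians; values of 0 are drawn below the grey line. Blue and orange points separate from paralog 10 on in clusters A, B and D. They also separate at some lower paralogs, among them Hoxa3, Hoxa7 and Hoxa9 and, with TNF higher, Hoxb6, Hoxb7 and Hoxb8. They overlap at Hoxb9 and Hoxd8, and in cluster C the TNF medians lie higher from paralog 4 to 9.

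Genes outside the clusters followed some of these borders. Evx1 lies 52.6 kb beyond Hoxa13 and Evx2 8.75 kb beyond Hoxd13, both homeobox genes, and Ttll6, a tubulin-modifying enzyme gene, 28.9 kb beyond Hoxb13, with no protein-coding gene between in any of the 3 cases. Evx1 and Evx2 averaged 1.87 and 4.91 CPM in the TCT group and 0 in TNF, and Ttll6 15.5 and 0.245. The 3 were singled out after their values were seen, among 17 flanking genes of which 14 were tested, 6 higher and 1 lower in TCT. Among 29 tested regulators of the clusters 4 were higher and 8 lower, where 32% of all genes were called in either direction. Cdx1, a caudal-type activator of the clusters, averaged 400 CPM in TCT and 190 in TNF, Cdx2 86.6 and 260, and Gata4, a small intestinal factor, 0.188 and 27.6. Among 9 cofactors Pbx3 was higher (log2 difference 1.16 ± 0.25) and Pbx4 lower (-3.79 ± 0.75).

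The library labelled TCT inflamed vehicle replicate 3 had none of the posterior profile of its group. It held 0.0633 CPM of Hoxb13, Hoxa13, Hoxa10 and Hoxa9, 0 of Hoxa11, Hoxd10, Hoxd11 and Hoxd12, and 0.127 of Hoxd13. The other 5 libraries of the group held 108 to 275 CPM of Hoxb13 and 49 to 76.9 of Hoxd13. In the same library Hoxb6, Hoxb7 and Hoxb8 were at 9.55, 12 and 10.6 CPM, Hoxc6 at 3.29 and Hoxc8 at 5.19, within the TNF ranges of 4.09 to 14.8, 6.47 to 19.7, 3.07 to 15.4, 2.04 to 12 and 3.29 to 22. Hoxb9, at 23.9 CPM, did not set it apart. Its summed immune markers, at 222 CPM, also lay below those of the other 5 libraries of its group (1182 to 4763). In TNF vehicle mice they were at 1929 to 4438 CPM in inflamed and 210 to 636 in non-inflamed libraries. The library thus lacked the immune marker level of the inflamed groups as well, and the cause was not tested.

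In other libraries only a few genes of the other profile stood out. TCT inflamed inhibitor replicate 3 held 4.36, 5.67 and 3.63 CPM of Hoxb6, Hoxb7 and Hoxb8 beside 146 of Hoxb13, with Sis at 1.02 CPM and Hoxc8 at 0. TNF inflamed inhibitor replicate 1 held 1.06 CPM of Hoxb13 and 0.846 of Hoxd13, the highest of the 21 TNF libraries for both, with Car1 at 0.529 CPM. The 5 TNF libraries with over 100 CPM of Car1 held at most 0.246 CPM of Hoxb13 and 0.491 of Hoxa9. TCT inflamed vehicle replicate 1 held 192 CPM of Sis and 340 of the enterocyte gene Apoa1, yet Hoxc8 was at 0.168 CPM and Hoxb8 at 0.84. This library and TCT inflamed inhibitor replicate 3 were among the 5 with pancreatic transcripts, at 2730 and 848 CPM of Cela2a. Whether other tissue contributed to these levels was not tested.

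The second comparison asked whether Hox levels differed between inflamed and non-inflamed mice of one model, with the labelled batch as a term. In TCT vehicle mice 0 of 26 tested members passed by edgeR, against 12.3% of 15317 genes, with 2 at an unadjusted p under 0.05, and DESeq2 and limma-voom also called 0. The 3 members with the smallest p were Hoxb7 (1.88 ± 0.75, adjusted p = 0.102), Hoxd12 (-1.44 ± 0.67, adjusted p = 0.162) and Hoxb4 (0.80 ± 0.40, adjusted p = 0.194), as log2 inflamed minus non-inflamed. Hoxb7 was at 12 CPM in replicate 3, at 1.03 to 1.8 in the other 5 inflamed libraries and at 0.524 to 1.22 in the non-inflamed ones. Without replicate 3 the differences were 0.46 ± 0.37 for Hoxb7, -1.19 ± 0.48 for Hoxd12 and 0.65 ± 0.40 for Hoxb4. In TCT inhibitor mice 1 of 26 members was called by edgeR, against 22.6% of genes, and 2 by limma-voom, against 29%. Without TCT inflamed inhibitor replicate 2 none was called, against 10.7% of genes, and without TCT non-inflamed inhibitor replicate 5 there were 2, against 29.6%.

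All 4 TCT groups share 1 estimate of the spread, and the SE of Hoxa11 in vehicle mice was 0.62 with replicate 3 and 0.24 without it. Without that library 5 of 26 members were called in vehicle mice (19.2%, against 18.5% of all genes) and 6 of 26 in inhibitor mice (23.1%, against 30%), shares close to or below those of all genes. The vehicle and inhibitor contrasts have no library in common, but both come from 1 fit with the same batch terms and spread. The 2 contrasts are therefore not independent. Hoxa9, Hoxa10 and Hoxa11 rose and Hoxb13 fell in both, Hoxa13 fell in vehicle mice, and Hoxa7 rose in inhibitor mice. Hoxa11 and Hoxb13, both posterior, thus went in opposite directions. Among vehicle libraries batch 1 holds 3 non-inflamed and 0 inflamed, batch 3 holds 0 and 1, and batch 4 holds 2 and 5, replicate 3 among them. Batch and inflammation are thus partly confounded in vehicle mice.

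Hoxa11, a regulator of limb and reproductive tract patterning, was at 4.02, 4.77, 4.9, 7.01 and 7.8 CPM in non-inflamed vehicle libraries. It was at 10.6, 12.8, 10.6, 11.2 and 11.5 CPM in the 5 remaining inflamed ones, with no overlap. Within batch 4 Hoxa11 was at 7.01 and 7.8 CPM in non-inflamed and 10.6 to 12.8 in inflamed vehicle libraries, replicate 3 left out. With inhibitor it ranged from 4.13 to 9.71 (median 5.35) and from 10.2 to 21.4 (median 14), again without overlap. The log2 differences without replicate 3 were 1.03 ± 0.24 (adjusted p = 0.00729) and 1.27 ± 0.22 (adjusted p = 0.000387, edgeR), and with it 0.77 ± 0.62 and 1.25 ± 0.58. An antisense gene, Hoxa11os, overlaps Hoxa11, and the kit marks strand, but whether counting used it is not given in the sources used here.

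Hoxb13 was at 527, 443, 537, 395 and 282 CPM in non-inflamed and 108, 275, 182, 149 and 241 CPM in inflamed vehicle libraries. With inhibitor it ranged from 271 to 509 (median 438) and from 107 to 251 (median 163). The inflamed libraries lay below all non-inflamed ones in both arms, by log2 differences of -1.03 ± 0.28 (adjusted p = 0.0159) and -1.0 ± 0.24 (adjusted p = 0.00446, edgeR). Within batch 4 Hoxb13 was at 395 and 282 CPM in non-inflamed and 149 to 275 in inflamed vehicle libraries, replicate 3 left out. With replicate 3 the differences were -1.28 ± 0.78 and -1.03 ± 0.70, with adjusted p-values of 0.281 and 0.285.

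Hoxa10 rose by 0.66 ± 0.16 (adjusted p = 0.00839) in vehicle and 0.89 ± 0.14 (adjusted p = 0.000144) in inhibitor mice on the log2 scale, from medians of 41.1 and 49.5 CPM, and its ranges overlapped in both arms. Hoxa9 rose by 0.40 ± 0.13 and 0.59 ± 0.11. These values leave out replicate 3. With it edgeR gave 0.40 ± 0.65 and 0.87 ± 0.58 for Hoxa10 and 0.15 ± 0.61 and 0.58 ± 0.55 for Hoxa9, none called. In vehicle mice with replicate 3 the sign turned by limma-voom and from the deposited normalised values, for Hoxa10 (-0.80 and -0.69), Hoxa9 (-0.87 and -0.91), Hoxa11 (-0.11 and -0.14) and Hoxa7 (-0.25 and -0.31). Hoxa13 fell by 0.59 ± 0.16 (adjusted p = 0.0172) in vehicle mice, while in inhibitor mice its difference was -0.30 ± 0.14 (adjusted p = 0.112, edgeR), and the 2 values were not tested against each other. Hoxd13 differed by -0.58 ± 0.41 and -0.48 ± 0.34, and no member of cluster D was called. With replicate 3 the differences were -0.84 ± 0.63 and -0.32 ± 0.57 for Hoxa13 and -0.83 ± 0.73 and -0.50 ± 0.64 for Hoxd13.

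Leaving out the 5 libraries with pancreatic transcripts as well, no member passed in vehicle mice (Hoxa10 0.61 ± 0.20, adjusted p = 0.0858), where 4.06% of genes did and 5 members had an unadjusted p under 0.05. In inhibitor mice 6 of 27 passed (22.2%, against 19.8% of genes). From the 2 inhibitor groups alone 6 members were called, Hoxa7, Hoxa9, Hoxa10 and Hoxa11 higher and Hoxa13 and Hoxb13 lower, against 32% of genes. Within batch 1, which holds 4 non-inflamed and 2 inflamed inhibitor libraries, 6 were called, against 24.3% of genes, among them Hoxa7, Hoxa9, Hoxa10 and Hoxa11 higher and Hoxb5 lower. Hoxa10 was at 0.97 ± 0.20 (adjusted p = 0.0157) and Hoxb13, not called, at -1.08 ± 0.36 (adjusted p = 0.064, edgeR).

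**Figure D3:**
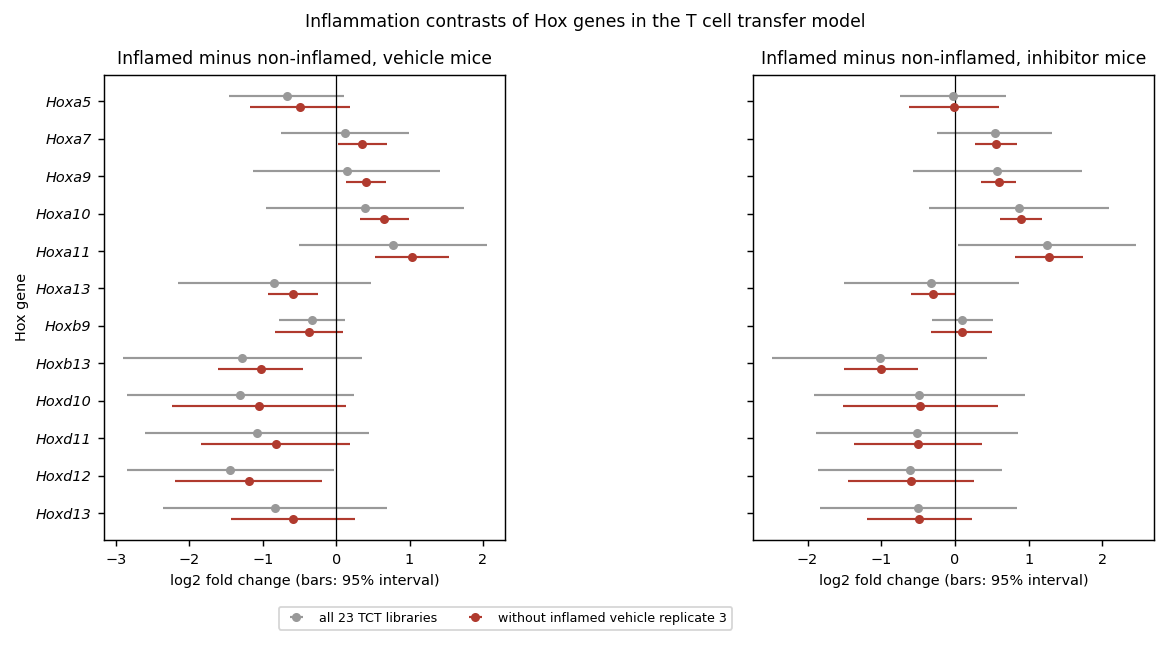
Log2 fold change, inflamed minus non-inflamed, of 12 Hox genes in TCT vehicle mice (left) and inhibitor mice (right), with 95% intervals, from all 23 libraries (grey) and without inflamed vehicle replicate 3 (red). The red intervals of Hoxa9, Hoxa10 and Hoxa11 lie above 0 and that of Hoxb13 below 0 in both panels, and the grey intervals of these 4 genes are wider.

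Tissue makeup moved with the same groups. Summed smooth muscle markers were at 3004 to 8731 CPM in the 11 non-inflamed TCT libraries and 1846 to 3667 in the 11 inflamed ones without replicate 3, with 6 of 10 markers lower in vehicle and 9 of 10 in inhibitor mice. Immune markers summed to medians of 182 and 2815 CPM, with 8 and 9 of 9 tested markers higher. Epithelial markers summed to 11099 to 14238 and 10006 to 13607 CPM, and none of 8 was called. Colonocyte markers, genes of the absorptive cells of the colon, summed to 3453 to 14379 CPM (median 8588) and 1047 to 4116 CPM (median 2357), with 6 of 10 lower in each arm. The part of these markers in the Hox differences was not tested, and in whole tissue fewer cells of a type and less RNA per cell cannot be told apart.

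Among the cofactors, Meis1 and Meis2 fell in both arms, with replicate 3 included, by 0.91 ± 0.27 and 0.93 ± 0.26 in vehicle mice (log2, adjusted p = 0.0318 and 0.0242, edgeR), and without it by 0.91 ± 0.28 and 0.93 ± 0.27. Cofactor calls were 3 lower of 8 tested in vehicle and 2 lower of 8 in inhibitor mice, with none higher, and without replicate 3 they were 4 lower in each. Of the flanking genes Ttll6, next to Hoxb13, fell by 1.99 ± 0.53 and 1.75 ± 0.53, and Evx1, next to Hoxa13, rose by 1.84 ± 0.56 in inhibitor mice (adjusted p = 0.0251, edgeR). Without replicate 3 Ttll6 fell by 1.75 ± 0.41 and 1.72 ± 0.39, and Evx1 rose by 1.87 ± 0.30 in inhibitor mice. Of 14 flanking genes 3 were higher and 2 lower in vehicle mice and 5 and 2 in inhibitor mice, and of 29 regulators 2 and 1, and 1 and 0, where 12.3% and 22.6% of all genes were called. Without replicate 3 the flanking genes gave 4 and 2, and 5 and 2, and the regulators 1 and 1, and 4 and 1.

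In the TNF model 0 of 17 tested members were called in vehicle mice by edgeR, DESeq2 or limma-voom, against 15% of 14370 genes, with 1 at an unadjusted p under 0.05. The smallest p-values belonged to Hoxd8 (0.76 ± 0.29, adjusted p = 0.0858), Hoxa3 (0.78 ± 0.39, adjusted p = 0.213) and Hoxa5 (-0.77 ± 0.40, adjusted p = 0.235). In inhibitor mice 1 member, Hoxb6, was called, against 11.6% of genes. It was at 14.7, 9.44, 11.1, 12.2 and 12.5 CPM in non-inflamed libraries and at 4.09 to 8.1 (median 6.48) in 6 inflamed ones, with no overlap. The log2 difference was -1.04 ± 0.31 (adjusted p = 0.0352, edgeR). The call was lost, with log2 differences for Hoxb6 of -0.98 to -1.09, under 6 alternatives. The adjusted p-values from edgeR were 0.303 without TNF inflamed inhibitor replicate 1, and 0.0556 and 0.0582 without non-inflamed inhibitor replicate 1 or 5. They were 0.0816 with the replicate number as a block, 0.0909 from the 2 groups alone, and 0.212 in a fit without the 5 libraries with Car1, in which 3.62% of genes passed. With no batch term 4 members were called, against 30.4% of genes. In vehicle mice Hoxb6 differed by -0.29 ± 0.22. Batch 2 holds all non-inflamed inhibitor libraries and 1 inflamed one, so batch and inflammation are nearly confounded there.

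Of the pathway lists in TNF, 1 of 9 cofactors (Pbx4, -1.72 ± 0.41) and 2 of 11 flanking genes (Skap2 and Snx10, higher) passed in vehicle mice, and of 29 regulators none. In inhibitor mice only Snx10, a sorting nexin, passed.

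**Figure D4:**
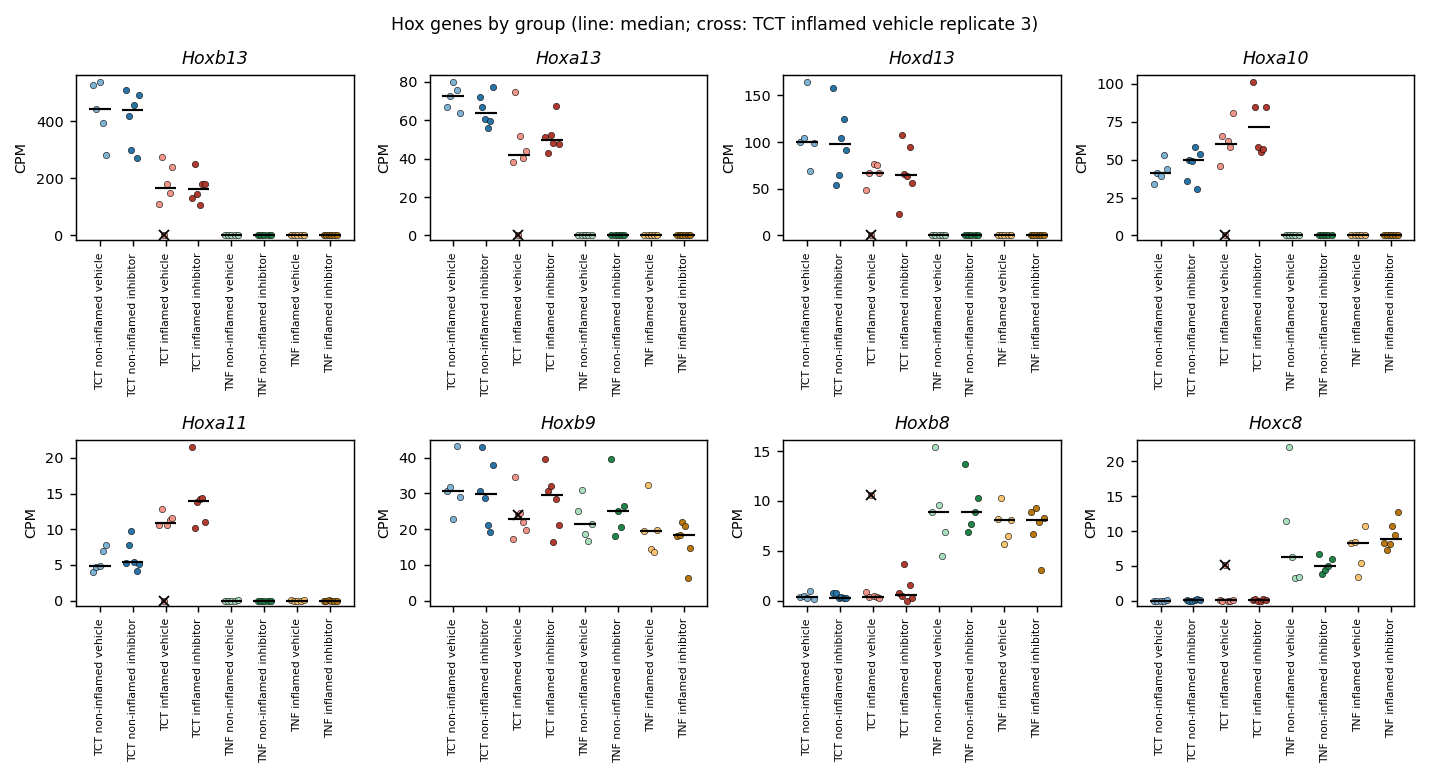
Level in CPM of 8 Hox genes in each library of the 8 groups, with medians as lines and a cross on TCT inflamed vehicle replicate 3. Hoxb13 is lower and Hoxa11 higher in the inflamed TCT groups, Hoxb9 has overlapping levels in all groups, and the cross lies with the TNF libraries for Hoxb8 and Hoxc8.

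The difference between the 2 inflammation effects in vehicle mice was tested as an interaction. It called 2 of 29 members, against 4.46% of 15565 genes: Hoxc8 at 5.98 ± 1.75 and Hoxc6 at 4.64 ± 1.38 (log2, adjusted p = 0.0416 and 0.0458, edgeR). Both rest on TCT inflamed vehicle replicate 3, the only library of its group with more than 0.168 CPM of either gene, and without it 0 members were called, against 3.55% of genes, with 3 at an unadjusted p under 0.05. Limma-voom called 0. Of 21 libraries left out in turn, 15 left 0 or 1 call: every non-inflamed TCT vehicle library, every inflamed TNF vehicle library, 4 of the non-inflamed TNF vehicle libraries and replicate 3.

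The last comparisons asked whether the MK2 inhibitor changed Hox levels. None of 26 members passed in inflamed or non-inflamed TCT mice and none of 17 in inflamed or non-inflamed TNF mice, by edgeR, DESeq2 or limma-voom, while the share of all genes called by edgeR was 0.00653%, 0%, 0% and 0%. At an unadjusted p under 0.05 there were 0, 0, 0 and 3 members, with replicate 3 included. Counts at an unadjusted p, here and above, are given without the share of all genes. They therefore show nothing particular to Hox genes. The 3 members were Hoxb4 (-0.68 ± 0.31), Hoxc6 (-0.69 ± 0.32) and Hoxc8 (-0.80 ± 0.38) in non-inflamed TNF mice, each at an adjusted p of 1. For Hoxb13 in inflamed TCT mice the log2 difference without replicate 3 was -0.07 (95% interval -0.63 to 0.49), and for Hoxa10 it was 0.43 (0.11 to 0.75, adjusted p = 1). With that library the differences were 0.15 ± 0.76 and 0.64 ± 0.63.

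Among the smallest p-values elsewhere were those of Hoxb9 (0.38 ± 0.22), Hoxa7 (0.55 ± 0.40) and Hoxa5 (0.43 ± 0.37) in inflamed TCT mice and Hoxb2 (-0.39 ± 0.34) and Hoxd11 (-0.54 ± 0.64) in non-inflamed TCT mice. Without replicate 3 the first 3 were 0.42 ± 0.23, 0.35 ± 0.15 and 0.28 ± 0.32. In inflamed TNF mice they were those of Hoxb6 (-0.57 ± 0.27), Hoxb3 (-0.51 ± 0.38) and Hoxc5 (-0.55 ± 0.60). No cofactor, regulator or flanking gene passed in any of the 4 inhibitor comparisons by edgeR. These intervals do not show that the inhibitor left Hox levels as they were.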

How the data were processed

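Poly-A RNA was sequenced from whole tissue with a directional kit, per the labels' protocols. Estimated counts per gene, and normalised values read here as signal, were deposited by the authors in separate tables for TCT and TNF. Salmon 0.14.1 and DESeq2 appear among the tools, and mm10 and GRCm38 among the builds, per the submitters' processing notes. Annotation release and strand setting: not given in the sources used here. Of 29720 gene identifiers, 29395 matched the GRCm38 annotation (GENCODE vM21). Noncoding and antisense genes of the clusters were not analysed here.

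Estimated counts were rounded. CPM used plain library totals. Tests used edgeR 4.0.16 (R 4.3.3) quasi-likelihood fits with TMM scaling over all groups of a model with batch as a term (26 Hox genes of 15317 in TCT, 17 of 14370 in TNF), and over both models (29 of 15565). The fit over both models had no batch term for the comparison between models, and batch nested in model for the interaction. The fits were also run on simulated counts, whose outcome is not given here. Those counts held no batch effects and no library out of place, so they cannot speak to either. DESeq2 1.42.0 and limma 3.58.1 were alternatives, as were other scalings and filters, the deposited normalised values on the log2(value + 1) scale, and leaving out each replicate. Ratios of summed counts carry an exact 95% interval where the lower group has 1 to 3 counts, which covers counting error only.

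Members and lists were chosen with earlier results of these data known. Members with a median of at least 1 CPM in a model, the group 13 genes, and in each comparison up to 10 called members, or the 3 with the smallest p, are named. Fits without doubted libraries were added after seeing the data. Values of 1 Hox gene and 1 regulator are not reported here; counts include them.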

Additional observations from a re-analysis of the deposited data

Results flagged for a closer look

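In groups of 5 or 6 libraries, 19 of 152 combinations of gene and group had a highest or lowest library set apart by Dixon's criterion. For independent, normally distributed values chance meets it in about 1 of 20. Genes of 1 library are not independent and CPM need not be normal, so no excess over chance can be read from this count. TCT inflamed vehicle replicate 3 accounted for 5, with Hoxa11 at 0, Hoxd13 at 0.127, Hoxb3 at 4.43, Hoxb6 at 9.55 and Hoxb7 at 12 CPM. TCT inflamed inhibitor replicate 3 stood apart for Hoxb6 at 4.36 and Hoxb7 at 5.67 CPM, and replicate 1 of that group for Hoxa11 at 21.4 CPM.

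Among non-inflamed TCT libraries, inhibitor replicate 1 stood apart for Hoxd12 (11 CPM) and Hoxb4 (2.34), inhibitor replicate 5 for Hoxa2 (0.295) and Hoxa5 (3.39), vehicle replicate 4 for Hoxd11 (44.9) and Hoxb4 (2.57), and vehicle replicate 6 for Hoxa3 (14.5). Among TNF libraries the values were Hoxa3 at 3.28 CPM in inflamed inhibitor replicate 6, Hoxb7 at 19.7 in inflamed vehicle replicate 2 and at 15.4 in non-inflamed inhibitor replicate 1, and Hoxb6 at 14.8 in non-inflamed vehicle replicate 2.

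The inflammation effect in vehicle mice differed between the models for Hoxc6 (4.64, log2) and Hoxc8 (5.98), and neither was called without TCT inflamed vehicle replicate 3.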

How the results depend on the processing

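The 24 members called between the models, against 32% of all genes, became 13 with the batch number as a term (6 higher, 7 lower), against 12%. They became 25 to 27 when single replicates were left out. In TCT vehicle mice 2 were called with no batch term, and 5 without TCT inflamed vehicle replicate 3, against 18.5% of all genes. There were 0 to 5 when single replicates were left out. In TCT inhibitor mice 2 were called by limma-voom (against 29% of all genes), 6 from the 2 groups alone (32%) and 6 within batch 1 (24.3%). There were 6 without TCT inflamed vehicle replicate 3 (30%), 6 without it and the pancreatic libraries (19.8%), and 0 to 2 without single replicates. In TNF inhibitor mice there were 2 with no filter on low counts, 0 with the replicate block and 4 with no batch term (against 30.4% of all genes). There were 0 from the 2 groups alone, 0 without the Car1 libraries (3.62%) and 0 to 1 without single replicates. The interaction gave 0 with no filter, by limma-voom and with the replicate block, and 0 to 2 without single replicates. It also gave 0 without TCT inflamed vehicle replicate 3 (against 3.55% of all genes), without it and the pancreatic libraries (1.77%) and without the Car1 libraries (0.46%). A count without a share of all genes beside it cannot be read as particular to Hox genes. Of 220 such counts of called members 40 moved by over 1.5 times, and those of the 4 inhibitor comparisons and of TNF vehicle mice stayed at 0 throughout. Replicate numbers were not taken to pair libraries, since no comparison had every pair's correlation over 0.1. For the inhibitor in non-inflamed TCT mice, however, 3 of 4 pairs were over 0.1 (median r = 0.435), and 3 libraries correlated best with their own number.

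In TCT vehicle mice the sign turned for Hoxa10 (-0.80 by limma-voom, -0.69 from the deposited values), Hoxa11 (-0.11 and -0.14), Hoxa7 (-0.25 and -0.31) and Hoxa9 (-0.87 and -0.91, -0.023 from the 2 groups alone, -0.0099 within batch 4), all with replicate 3 included. It also turned for Hoxc5 under the inhibitor in inflamed TNF mice with no batch term (0.0066) and for Hoxb2 in non-inflamed TCT mice without vehicle replicate 4 (from -0.55 to 0.10 over single replicates left out). The cause was not tested. At these depths a member with 0 counts in a group of 5 libraries is known only to lie under 3 counts.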

Other observations

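Hoxd10 to Hoxd13 varied more between non-inflamed TCT libraries than the posterior genes of clusters A and B, of which Hoxa11 varied most, 2.42 times. This was not tested, and the less abundant of these genes carry more counting error. Over the 11 non-inflamed TCT libraries the highest level was 5.21 times the lowest for Hoxd10, 4.68 times for Hoxd11, 3.49 times for Hoxd12 and 3.05 times for Hoxd13, against 1.43 times for Hoxa13, 1.92 times for Hoxa10 and 1.98 times for Hoxb13. TCT non-inflamed vehicle replicate 4 was the highest for Hoxd10, Hoxd11 and Hoxd13, and without it the ratios for Hoxd10 to Hoxd13 were 4.18, 3.01, 3.49 and 2.94. Cdx2, which activates Hox clusters in the embryo and is an epithelial factor in adult gut, varied 9.57 times, from 25.2 to 241 CPM.

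Relations between these genes were examined after their values were seen, 32 in all over 2 sets of 11 TCT libraries, on log2(CPM + 0.5), with permutation tests of 100000 resamples adjusted over the 32. In non-inflamed libraries Hoxd13 and Cdx2 ran opposite (r = -0.87, permutation p = 0.00077, adjusted p = 0.0066; rho = -0.87, permutation p = 0.00092, adjusted p = 0.029). Without the 2 libraries farthest from the median of Cdx2, r was -0.73, and within the 7 libraries of batch 1 it was -0.87. In the 11 inflamed libraries, replicate 3 left out, r was -0.52 (permutation p = 0.11, adjusted p = 0.22) and rho -0.25 (permutation p = 0.45, adjusted p = 0.61). Cdx2 also ran opposite to Hoxd11 in non-inflamed libraries (r = -0.74, permutation p = 0.0071, adjusted p = 0.028, -0.41 without the 2 farthest). With Hoxb13 and Hoxa13 its r was -0.51 and -0.31 (permutation p = 0.11 and 0.35). Within batch 1 r was -0.83, -0.89 and -0.70 for Hoxd11, Hoxb13 and Hoxa13. In inflamed libraries r was -0.40, 0.29 and 0.38 for the same genes.

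Hoxa10 ran with Cdx2 in non-inflamed libraries (r = 0.74, permutation p = 0.011, adjusted p = 0.041; rho = 0.75, permutation p = 0.011, adjusted p = 0.058), with r of 0.76 without the 2 farthest libraries and 0.80 within batch 1. In inflamed ones r was 0.78 (permutation p = 0.0044, adjusted p = 0.023) and rho 0.77 (permutation p = 0.0079, adjusted p = 0.057), and r fell to 0.42 without the 2 farthest. Hoxd13 and Hoxd12 ran together in non-inflamed libraries (r = 0.83, permutation p = 0.0019, adjusted p = 0.012; rho = 0.76, permutation p = 0.0089, adjusted p = 0.057; 0.68 without the 2 farthest, 0.90 within batch 1). They did so in inflamed ones too (r = 0.94, permutation p = 4e-05, adjusted p = 0.0013; rho = 0.84, permutation p = 0.0021, adjusted p = 0.033; 0.78 without the 2 farthest). For Hoxd11 and Hoxd10 with Hoxd13, r was 0.76 and 0.69 in non-inflamed libraries (permutation p = 0.006 and 0.019, adjusted p = 0.027 and 0.059). There rho was 0.69 and 0.64 (adjusted p = 0.072 and 0.099), and r fell to 0.49 and 0.43 without the 2 farthest. In inflamed libraries r was 0.91 and 0.90 (permutation p = 0.00068 and 0.00082, adjusted p = 0.0066 for each), and 0.55 and 0.56 without the 2 farthest. No batch held 6 inflamed libraries. With Hoxa13 and Hoxb13, Hoxd13 had r of 0.19 and 0.30 in non-inflamed libraries (permutation p = 0.57 and 0.36), and 0.53 and 0.72 within batch 1. In inflamed libraries r was 0.097 and 0.49 (permutation p = 0.76 and 0.12), and rho with Hoxb13 was 0.69 (permutation p = 0.022, adjusted p = 0.072). Hoxa10 and the smooth muscle gene Myh11 had r of -0.28 (permutation p = 0.4, adjusted p = 0.46) and rho of -0.36 (permutation p = 0.28, adjusted p = 0.4) in non-inflamed libraries. Without the 2 farthest libraries r was -0.94, as it was within batch 1. Those 2, inhibitor replicate 5 (Myh11 at 537 CPM) and vehicle replicate 7 (595 CPM), lie outside batch 1. The first set therefore holds all of the second, and neither value of -0.94 was tested. CPM values of a library share one total, and tissue makeup was not held constant.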
